A study of Homo sapiens with 8 samples.

Results

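The genes described here are 10 parts of the TGF-beta and BMP signalling route: the receptors TGFBR1, TGFBR2 and BMPR2, the signal transducers SMAD1, SMAD5, SMAD2, SMAD3 and SMAD4, the inhibitory SMAD7 and the corepressor SKI. They were chosen by symbol, and every probe whose RefSeq accession maps to one of them was taken, which gave 17 of the 41000 probes on the array. The cells were L1236, an established cell line derived from Hodgkin lymphoma that has high levels of the microRNA miR-155. All samples came from this 1 line, were transduced with the retroviral pMSCV-PIG vector and were sorted for GFP, and the control cells (EV) carried the empty vector while the sponge cells carried the vector with a miR-155 sponge, which offers the microRNA repeated decoy sites in place of its own targets. Both populations gave total RNA (T) and an immunoprecipitate (IP) of Argonaute 2 (Ago2), which holds microRNAs together with the transcripts they pair with. Each of the 4 RNA samples was labelled with Cy3 and with Cy5 on 4 two-colour arrays. Each group is therefore 1 RNA sample, the comparisons have no replicate check, and no p-value is given. For IP/T the error is the SD of the 2 dye orientations (IP in Cy5 with T in Cy3, and the reverse), and for a change in T or IP it is the SD of the 2 dyes. These errors are technical and say nothing about how much cultures or precipitations vary.

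TGF-beta and BMP ligands bind pairs of type II and type I receptor kinases. The type I receptor then phosphorylates receptor-regulated SMADs, SMAD2 and SMAD3 on the TGF-beta and activin branch and SMAD1 and SMAD5 on the BMP branch, which join SMAD4 and enter the nucleus. SMAD7 blocks the receptors, and SKI holds SMAD complexes in a repressed state. In B cells the route restrains growth, and SMAD1, SMAD2 and SMAD5 have each been reported as targets of miR-155. A microRNA finds its targets mainly through bases 2 to 8, its seed. The mature miR-155-5p is printed because the sponge competes for it, with the seed in capitals and RefSeq's position in GRCh38.p14, chr21:25573983-25574006 on the + strand.
miR-155-5p: uUAAUGCUaaucgugauagggguu
The DNA letters that pair with this seed are AGCATTA. None of the other microRNAs among the 2370 mature names in the RefSeq table had the same bases 2 to 8. Sites for this seed in the transcripts of the 10 genes were not analysed here.

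Of the 17 probes, 13 were kept, and they covered 8 of the 10 genes. A probe was kept when at least 4 of its 8 channel signals were well above background and when its Cy3 and Cy5 signals lay within 2-fold of each other in each RNA sample. Over the whole array 22471 probes passed. The share of spots well above background was 54.1% in sponge T labelled with Cy5 and between 61.0% and 65.7% in the other 7 channels. All 9 Hodgkin cell line markers (TNFRSF8, the CD30 gene, among them) were well above background in all 4 T labellings, as were 4 of 6 B lineage markers, while MS4A1, the CD20 gene, was in none. The T cell markers CD3D and CD3G were in none, and CD3E was in all 4. The monocyte markers CD14 and CSF1R were in all 4. Of the fibroblast collagens, COL1A2 was in none, and COL3A1 was in 2 of 4, with a mean log2 signal of 7.16 in EV T and 4.11 in sponge T. All samples came from 1 sorted cell line, and the source of these marker signals was not tested. In these bulk samples, fewer cells with a transcript and less of that transcript per cell cannot be told apart. Signals below are quantile-normalised log2 intensities of 1 probe, which can be compared between samples but not between probes.

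**Figure D1:**
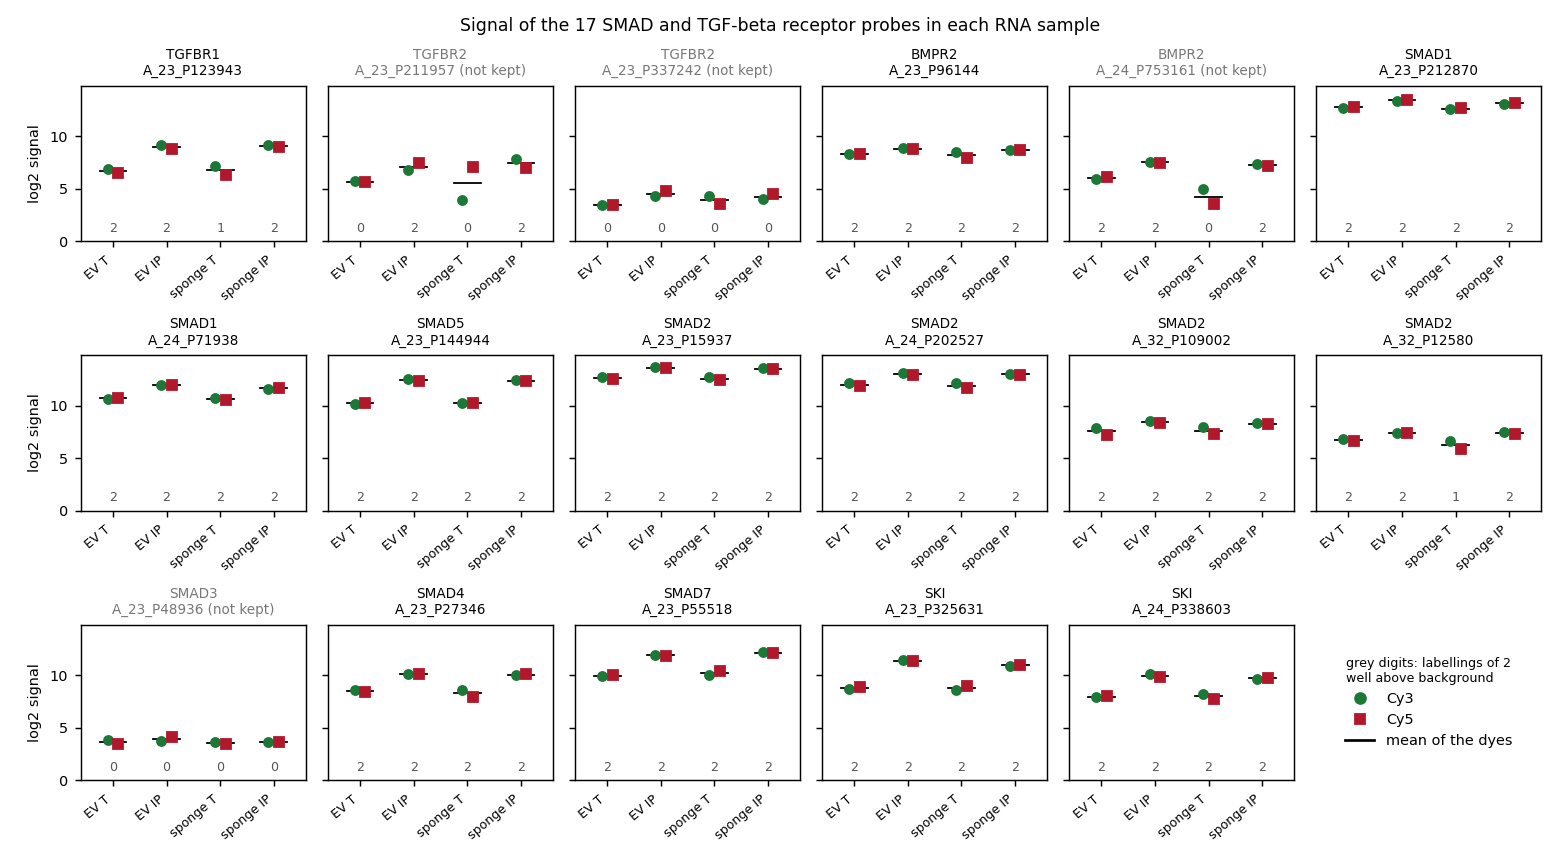
Log2 signal (vertical axis) of each of the 17 member probes in the 4 RNA samples (horizontal axis), with Cy3 as circles, Cy5 as squares, their mean as a line, and in grey the number of labellings of 2 that were well above background. SMAD3 and 1 TGFBR2 probe have 0 in every sample, and in the 13 kept probes the IP mean lies above the T mean of the same cells.

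The 13 kept probes had higher signals in the Ago2-IP than in total RNA, and for each of them 7 or 8 of the channels were well above background. In EV cells IP/T was 2 or more for 8 of the 13 kept probes, against 17.5% of all kept probes, and in sponge cells for 8 of 13, also against 17.5%. Left to probes with T well above background, the share of all kept probes was 16.2% in each population, and the count of member probes stayed at 8. An IP/T of 4 or more was found for 4 probes in EV cells, where the share over all kept probes was 5.91%, and for 3 in sponge cells, where it was 5.67%. All 13 had IP/T above 1 in both dye orientations in EV cells and in sponge cells, where 39.1% and 38.9% of all kept probes did. None had T/IP of 2 or more, which 19.0% of all kept probes had in EV cells and 17.8% in sponge cells. The median log2 IP/T of the 13 probes was 1.24 in EV cells (1.30 and 1.32 in the single orientations) and 1.12 in sponge cells (0.94 and 1.58), against -0.16 and -0.13 over all kept probes. With 1 probe a gene, 5 of 8 genes had IP/T of 2 or more in each population, and the medians were 1.79 and 1.87, so that the median was lower in sponge cells by probe and higher by gene. Probes of 1 gene share a transcript, so that the 13 probes are not 13 separate measurements.

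**Figure D2:**
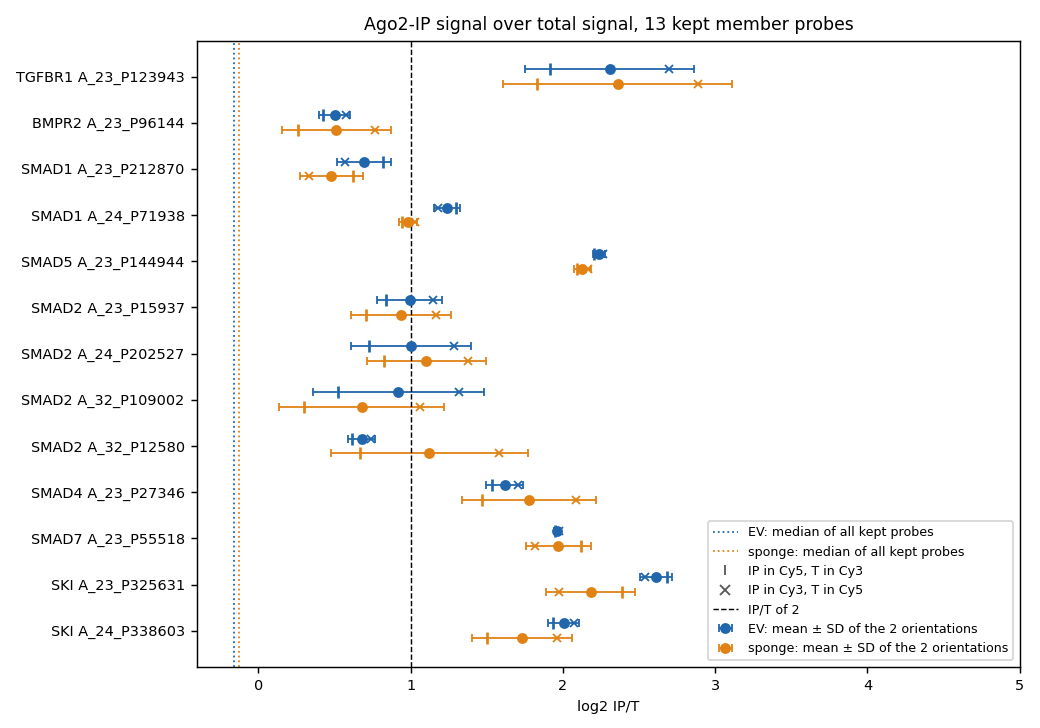
Log2 IP/T (horizontal axis) of the 13 kept probes in EV (blue) and sponge cells (orange), as mean ± SD of the 2 orientations, with the orientations as ticks and crosses, the medians of all kept probes dotted and an IP/T of 2 dashed. The probes range from 0.50 to 2.61 in EV cells, all to the right of the dotted medians.

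TGFBR1 encodes the type I receptor kinase for TGF-beta. Its T signal was 6.85 and 6.46 (Cy3 and Cy5) in EV cells and 7.15 and 6.30 in sponge cells, and 1 of the 2 sponge T labellings was not well above background. Its IP signal was 9.15 and 8.77 in EV cells and 9.19 and 8.98 in sponge cells. IP lay above T in every labelling, and the EV and sponge values overlapped in both fractions. Log2 IP/T was 2.31 ± 0.55 in EV cells, higher than in 95.8% of kept probes, and 2.36 ± 0.75 in sponge cells, with wide dye errors in both populations. With a normexp background correction and quantile normalisation the values were 0.62 and 0.72, under an IP/T of 2 in both populations.

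TGFBR2, the type II receptor for TGF-beta, had no kept probe. The probe A_23_P211957 was well above background in all 4 IP labellings, with log2 signals of 6.75 and 7.41 (EV) and of 7.80 and 7.00 (sponge), and in none of the 4 T labellings. For such a probe a bound is given. It sets the IP mean against the lowest signal that counted as well above background in T or the probe's own, whichever was higher. The probe's own was the higher in each case given here. The bound is thus a ratio of measured means on the normexp, loess and Aquantile scale, and not a strict lower limit. It was 1.15-fold for IP over T in EV cells and 1.14-fold in sponge cells. On the quantile scale, sponge IP (7.00) lay below sponge T (7.06) in Cy5. Its 2 dyes differed by 8.60-fold in sponge T, which is why it was dropped. The other probe, A_23_P337242, on a different RefSeq transcript, was well above background in none of the 8 channels. The TGFBR2 data thus hold bounds only, and no change under the sponge.

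BMPR2 encodes the type II receptor for BMPs. The kept probe A_23_P96144 had the lowest IP/T of the 13, with log2 values of 0.50 ± 0.10 in EV and 0.51 ± 0.36 in sponge cells. Its signals were 8.34 and 8.27 in EV T, 8.85 and 8.76 in EV IP, 8.45 and 7.95 in sponge T, and 8.72 and 8.71 in sponge IP. The second BMPR2 probe, A_24_P753161, had in EV cells a log2 IP/T of 1.52 ± 0.08, and 1.57 with 75th percentile scaling. The probes of this gene thus lay on different sides of an IP/T of 2. With normexp, loess and Aquantile (0.30) and with normexp and quantile normalisation (0.26) it was kept and lay under 2. A_23_P96144 had 0.33 and 0.19 there. A_24_P753161 was dropped in the main setting because its dyes differed by 2.73-fold in sponge T, where neither labelling was well above background. Its bound was 1.20-fold for IP over T in sponge cells, and 1.08-fold for T in EV cells over T in sponge cells. With no dye filter its measured change in T was -1.76 on the log2 scale, and with 75th percentile scaling -1.41, the values of a probe not well above background in sponge T.

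SMAD1, a receptor-regulated SMAD of the BMP branch, was measured by 2 probes, and both had a lower IP signal in sponge cells. The probe A_23_P212870 gave IP signals of 13.36 and 13.48 in EV cells and 13.05 and 13.16 in sponge cells, with T at 12.66 and 12.79 in EV cells and 12.54 and 12.71 in sponge cells. The EV and sponge values did not overlap in IP and overlapped in T. The log2 change in IP was -0.31 ± 0.01 and that in T -0.10 ± 0.03. The probe A_24_P71938 gave IP signals of 11.93 and 11.95 in EV cells and 11.58 and 11.70 in sponge cells. Its log2 change in IP was -0.30 ± 0.07, close to that of the first probe, and its change in T was -0.04 ± 0.21. Of all kept probes, 5.98% had a lower change in IP than the first and 6.84% than the second. Log2 IP/T was 0.69 ± 0.18 in EV and 0.48 ± 0.21 in sponge cells for A_23_P212870, and 1.24 ± 0.08 and 0.99 ± 0.06 for A_24_P71938. The second probe had an IP/T of 2.36 in EV and 1.98 in sponge cells, where the orientations lay on either side of 2 (log2 0.94 and 1.03) and Cy5 labels only gave 1.14, with a log2 change in IP/T of -0.26 ± 0.14, and with normexp and quantile normalisation it lay under 2 in EV cells too, at 0.97 on the log2 scale. With Cy5 labels only that change was -0.06 and with Cy3 labels only -0.45.

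SMAD5, the other measured BMP branch SMAD, had a high IP/T with small dye errors. Its T signals were 10.17 and 10.24 in EV cells and 10.21 and 10.24 in sponge cells, and its IP signals were 12.51 and 12.38 in EV cells and 12.41 and 12.30 in sponge cells. IP lay more than 2 log2 units above T in each of the 4 orientation values, and the EV and sponge values overlapped in both T and IP. In EV cells log2 IP/T was 2.24 ± 0.04, and in sponge cells it was 2.13 ± 0.05, or 4.71-fold and 4.37-fold. The log2 change was 0.02 ± 0.03 in T, -0.09 ± 0.02 in IP and -0.11 ± 0.01 in IP/T. The change in IP/T kept its sign in all 9 alternatives that alter values, between -0.17 and -0.08, and 28.8% of all kept probes had a lower one.

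SMAD2, the SMAD of the TGF-beta and activin branch that the array detected here, had 4 kept probes with log2 IP/T between 0.68 and 1.00 in EV cells. The probe A_23_P15937 is printed 10 times on each array, and the SD over its spots was at most 0.06 on the log2 scale. Its signals were 12.72 and 12.51 in EV T, 13.65 and 13.56 in EV IP, 12.75 and 12.41 in sponge T, and 13.58 and 13.45 in sponge IP. The EV and sponge values overlapped in both fractions. In EV cells log2 IP/T was 0.99 ± 0.21, and in sponge cells it was 0.94 ± 0.33, and the log2 change in IP was -0.09 ± 0.03. The probe A_24_P202527 reached 1.00 ± 0.39 (log2 IP/T, EV cells) and an IP/T of 2.15 (sponge cells), and A_32_P109002 had 0.92 ± 0.56 and 0.68 ± 0.54. An IP/T of 2 runs through these values, with folds of 1.99 and 2.00 in EV cells for the first and second probe, so that the call for SMAD2 differed between probes, and for A_24_P202527 it was lost with normexp and quantile normalisation, at 0.79. The change in IP was -0.01 ± 0.10 for A_24_P202527 and -0.18 ± 0.05 for A_32_P109002. The fourth probe, A_32_P12580, is annotated to a different RefSeq transcript of SMAD2 (NM_001003652, against NM_005901 for the other 3). Its T signals were 6.78 and 6.64 in EV cells and 6.61 and 5.91 in sponge cells, where 1 of 2 labellings was well above background. Its log2 change in T was -0.45 ± 0.40, with a lower change in 3.29% of all kept probes, and its change in IP was -0.01 ± 0.16. From 0.68 ± 0.09 in EV cells, its log2 IP/T went to 1.12 ± 0.65 in sponge cells, a change of 0.45 ± 0.56. It lay under an IP/T of 2 in sponge cells with both normexp settings (0.23 and 0.24), with Cy3 labels only (0.88) and with IP in Cy5 only (0.67). The change in T was -0.08 with normexp, loess and Aquantile normalisation.

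SMAD3, the second SMAD of the TGF-beta and activin branch, was not detected. Its probe is printed 10 times on each array, and 0 of the 78 spots that passed the outlier flags over the 8 channels were well above background. The array thus gives no IP/T and no change for it.

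SMAD4, the partner that all receptor-regulated SMADs share, had T signals of 8.57 and 8.37 in EV cells and 8.60 and 7.95 in sponge cells. Its IP signals were 10.07 and 10.10 in EV cells and 10.03 and 10.07 in sponge cells. The 4 IP values lay within 0.1 log2 units, while the sponge T values lay on either side of the EV T values. Log2 IP/T was 1.62 ± 0.12 and 1.78 ± 0.44, and the change in IP was -0.04 in Cy3 and -0.03 in Cy5. Normexp with quantile normalisation gave 0.79 in EV and 0.81 in sponge cells, under an IP/T of 2. With normexp, loess and Aquantile the values were 0.95 and 0.77, also under 2.

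SMAD7, the inhibitory SMAD, was the member with higher signals in sponge cells in both fractions and both dyes. Its T signals were 9.88 and 9.97 in EV cells and 9.97 and 10.37 in sponge cells, and its IP signals were 11.95 and 11.82 in EV cells and 12.19 and 12.10 in sponge cells. The IP values did not overlap between the populations, and the T values met at 9.97 to 2 decimals. The log2 change was 0.25 ± 0.21 in T and 0.26 ± 0.02 in IP. As both fractions were higher by a like amount, log2 IP/T was close in EV cells (1.96 ± 0.02) and sponge cells (1.97 ± 0.21). Of all kept probes, 10.4% had a higher change in IP and 10.8% a higher change in T.

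SKI, a corepressor that binds SMAD complexes, had the highest IP/T in EV cells and the lowest change in IP of the 13 probes. The probe A_23_P325631 had IP signals of 11.40 and 11.36 in EV cells and 10.90 and 10.98 in sponge cells, and T signals of 8.68 and 8.86 in EV cells and 8.59 and 8.93 in sponge cells. The IP values of the populations did not overlap, and the sponge T values enclosed the EV T values. The log2 change was -0.44 ± 0.08 in IP and -0.01 ± 0.11 in T, and 1.95% of all kept probes had a lower change in IP. In EV cells log2 IP/T was 2.61 ± 0.11, and in sponge cells it was 2.18 ± 0.29, or 6.11-fold and 4.54-fold. The probe A_24_P338603 had IP signals of 10.07 and 9.84 in EV cells and 9.67 and 9.75 in sponge cells, again without overlap. Its log2 change in IP was -0.25 ± 0.22, and its IP/T went from 2.00 ± 0.10 to 1.73 ± 0.33 on the log2 scale. With normexp and quantile normalisation its IP/T was 0.89 in EV and 0.70 in sponge cells. With normexp, loess and Aquantile it was 1.03 and 0.64. Its change in T was 0.34 with Cy3 and -0.29 with Cy5, so that its change in IP/T of -0.27 ± 0.23 was -0.74 with Cy3 labels only and 0.19 with Cy5 labels only.

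Set side by side, the IP signal was lower in sponge than in EV cells in both dyes for 9 of the 13 kept probes, where 35.7% of all kept probes were, and higher for 2 (TGFBR1 and SMAD7), where 37.8% were. The 9 probes belong to BMPR2, SMAD1, SMAD5, SMAD2, SMAD4 and SKI. In T, 3 probes were lower in both dyes, where 33.4% of all kept probes were, and 2 were higher, where 28.5% were. For IP/T the 2 values of the change are the dye orientations and not the dyes. IP/T was lower in both for 6 probes, of SMAD1, SMAD5, SMAD2 and SKI, against 28.8% of all kept probes. It was higher in both for 2 SMAD2 probes, against 35.1%. The sign was the other way for SMAD2 A_24_P202527 with Cy3 labels only (-0.03) and for SKI A_24_P338603 with Cy5 labels only (0.19). The sizes were small. None of the 13 differed by 2-fold or more in T, which 0.409% of all kept probes did, or in IP, which 0.151% did. None met the study's criterion of an IP/T of 2 or more in EV cells that is at least 2-fold lower in sponge cells. Of all kept probes, 21 did, or 0.0935%. This count was made here with the filters above, and the study itself reported fewer such probes in L1236. The median log2 change in IP of the 13 probes was -0.09, against 0.01 over all kept probes, and that in T was -0.04, against -0.02.

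**Figure D3:**
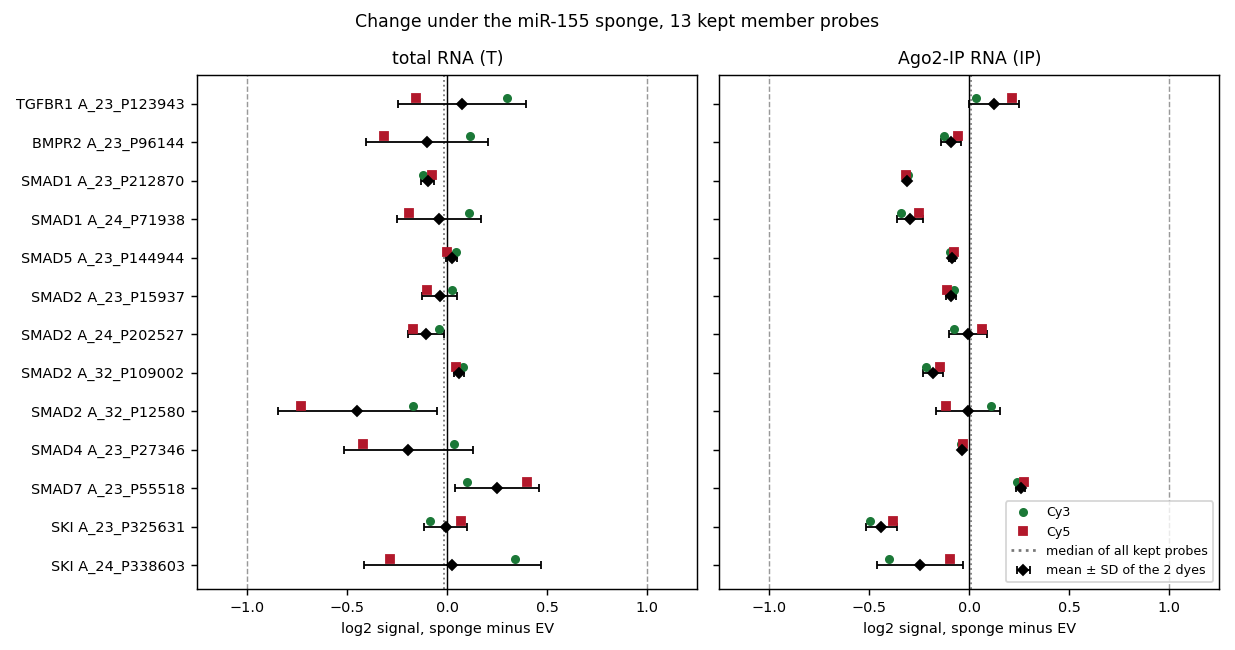
Log2 change of sponge against EV cells (horizontal axis) in T (left) and in IP (right) for the 13 kept probes, with Cy3 circles, Cy5 squares and the mean ± SD of the dyes as diamonds. The dashed lines mark a 2-fold change, which no mean reaches, and the dyes lie closer together in IP than in T except for the SMAD2 probes A_24_P202527 and A_32_P109002.

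The dye errors show only how well the labellings of the same RNA sample match. No culture or precipitation was repeated within a group. A change with a small dye error may therefore still lie within the variation between cultures or precipitations. Over all kept probes the median SD between dyes was 0.12 for the change in T and 0.08 for the change in IP, and over the 13 member probes it was 0.21 and 0.05. For 12 of the 13 the largest difference between dyes was in sponge T, whose Cy5 channel also had the lowest share of spots above background. Cy5 was lower than Cy3 there for 9 of 13 probes, with a median difference of -0.45, against -0.05 over all kept probes. The part of this channel in the changes of T and of IP/T was not tested. The changes in IP are not computed from that channel, apart from its share in the common quantile scale.

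The rest of the route was described with a list of 71 genes, of which 48 had a kept probe. Apart from bounds, values of these genes are given with quantile normalisation of the processed signals only. For the members, the count with IP/T of 2 or more was smaller with a normexp background correction, as given below. Of these 48, 17 (35.4%) in EV cells had T well above background and IP/T of 2 or more, as did 18 (37.5%) in sponge cells, where 16.2% of all kept probes did in each population. With ACVR1B and TGIF1, whose T gives a bound only, the counts were 19 (39.6%) and 20 (41.7%), against 17.5% of all kept probes. T/IP was 2 or more for 4 genes (8.33%) in EV cells and for 3 (6.25%) in sponge cells. Of all kept probes, 19.0% and 17.8% had this. The median log2 IP/T of the 48 genes, 0.50 ± 0.09 (EV) and 0.44 ± 0.27 (sponge), was below the 1.79 (EV) and 1.87 (sponge) of the members with 1 probe a gene and above the median of all kept probes. With ACVR1B and TGIF1 at their bounds it was 0.37 and 0.35. The IP signal was lower in sponge cells in both dyes for 21 (43.8%) and higher for 17 (35.4%), against 35.7% and 37.8% of all kept probes.

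Receptors outside the members had a measured IP/T of 2 or more in 3 of 5 kept genes (60.0%), in both populations. Over all kept probes the share was 16.2%. ACVR1, a type I receptor for activin and BMP ligands, was at 2.40 ± 0.29 (log2 IP/T) in EV cells and at 2.88 ± 0.65 in sponge cells. Its sponge T was well above background in 1 of 2 labellings. TGFBR3, the coreceptor betaglycan, had 2.72 ± 0.28 and 2.95 ± 0.28, and ACVR1C, a type I receptor for nodal and activin, had 2.11 ± 0.24 and 1.61 ± 0.34. ACVR1B, the activin type I receptor, was not well above background in T. Its bound for IP over T was 1.31-fold in EV and 1.24-fold in sponge cells. Ligands were sparse. Of 13 on the array, 4 were kept. Only INHBA, which encodes an activin subunit, had IP/T of 2 or more, with log2 values of 1.62 ± 0.10 and 1.52 ± 0.21. TGFB1 lay on the other side, with -1.02 ± 0.06 in EV cells and -0.98 ± 0.06 in sponge cells. GDF11 (-0.15 ± 0.42 and -0.03 ± 0.51) and GDF15 (-0.08 ± 0.56 and -0.24 ± 0.51) had errors wider than their values. TGFB2, TGFB3, BMP2, BMP4 and BMP7 had no kept probe.

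Of 10 ligases and turnover genes, 4 had T well above background and IP/T of 2 or more in EV cells, against 16.2% of all kept probes. SMURF1 and SMURF2, ubiquitin ligases that act on SMADs and receptors, had 2.19 ± 0.04 and 2.15 ± 0.21 in EV cells and 1.87 ± 0.16 and 2.24 ± 0.07 in sponge cells on the log2 scale. RNF111, a ligase that degrades SMAD7 and SKI, had 2.65 ± 0.08 and 2.71 ± 0.28. STUB1, a ligase that also acts on SMADs, lay on the other side with -1.74 ± 0.13 and -1.63 ± 0.19. So did USP9X, with -1.03 ± 0.05 in EV cells and -1.03 ± 0.29 in sponge cells. Among the 10 genes, these 2 had T/IP of 2 or more in EV cells, against 19.0% of all kept probes. Among corepressors, TGIF2 had 2.12 ± 0.29 and 2.17 ± 0.59, and SKIL, the paralog of SKI, had 1.37 ± 0.13 and 1.58 ± 0.18. The log2 change in IP of SKIL was 0.26 ± 0.01, opposite in sign to that of both SKI probes. TGIF1 was not well above background in T, and its bound for IP over T was 1.28-fold in EV and 1.16-fold in sponge cells. ZFYVE16, an endosomal SMAD anchor, had a log2 IP/T of 2.08 ± 0.25 and 1.44 ± 0.25.

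Of the 12 kept target genes of the route, 5 had a measured IP/T of 2 or more in EV cells, and 6 did in sponge cells. Over all kept probes the share was 16.2% in each population. TGFBI, an extracellular matrix protein induced by TGF-beta, was at 2.88 ± 0.10 (log2 IP/T) in EV cells and at 2.49 in sponge cells, with a log2 change in IP of -0.57 ± 0.05. CDKN1A, which encodes the cell cycle inhibitor p21, had 1.78 ± 0.13 and 1.78 ± 0.21, with a change of 0.51 ± 0.12 in T and 0.52 ± 0.03 in IP. JUNB, a transcription factor gene, had 1.91 ± 0.04 and 1.64 ± 0.06. IP was lower in sponge cells in both dyes for 5 of the 12 and higher for 6, against 35.7% and 37.8% of all kept probes. Of 6 kept inhibitors and latency proteins, 1 had a measured IP/T of 2 or more in EV cells (16.7%), against 16.2% of all kept probes. The median log2 IP/T of the 6 was -0.45 in EV cells. The 1 gene was BAMBI, a decoy receptor, with a log2 IP/T of 2.23 ± 0.04 and 2.27 ± 0.20. LTBP3, which binds latent TGF-beta, was the gene of the list that differed by 2-fold or more under the sponge, with a log2 change of -1.24 ± 0.68 in T and -1.60 ± 0.05 in IP.

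**Figure D4:**
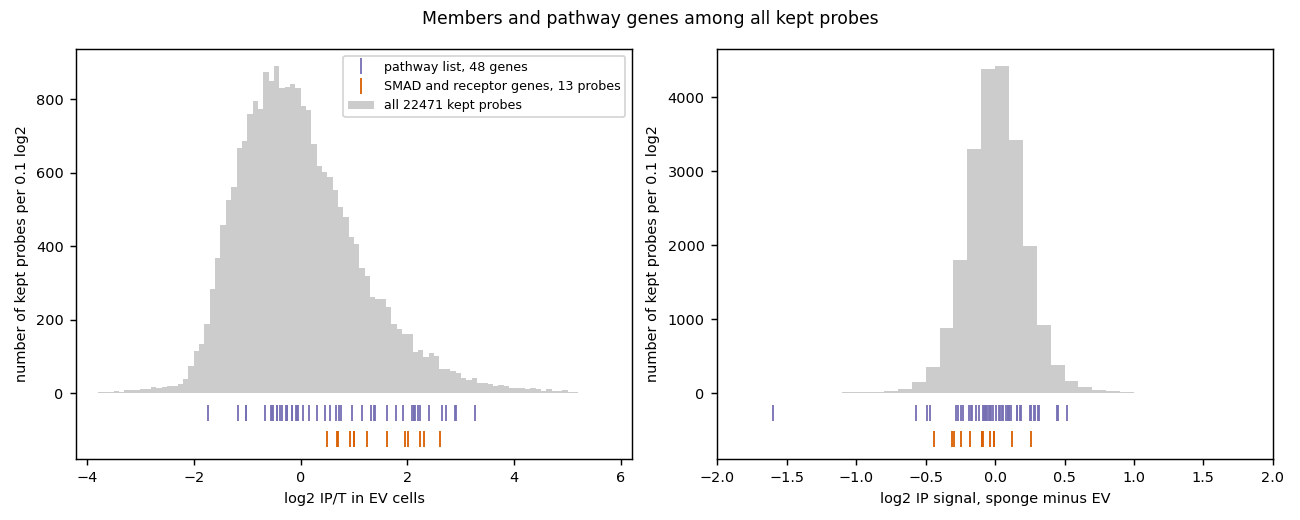
Number of kept probes per 0.1 log2 units (vertical axis) by log2 IP/T in EV cells (left) and by log2 change in IP (right), over all 22471 kept probes in grey, with the 48 pathway genes (purple) and the 13 member probes (orange) as ticks below. The member ticks start at 0.50 on the left and lie between -0.44 and 0.26 on the right, where LTBP3 stands apart at -1.60.

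The genes whose signals were most like those of the reported miR-155 targets were found by the smallest root mean square difference of mean-centred log2 signals over the 8 channels, which come from 4 RNA samples and share dyes and arrays. For SMAD1 they were PHACTR4, TBC1D2B and SPIRE1, with differences of 0.0556, 0.0577 and 0.0589 among 15625 named probes. For SMAD2 they were CCDC43, HAT1 and CREM, with differences from 0.0342 to 0.0408. For SMAD5 they were PIGC, C8orf76 and PHAF1, with differences from 0.0618 to 0.0739.

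**Figure D5:**
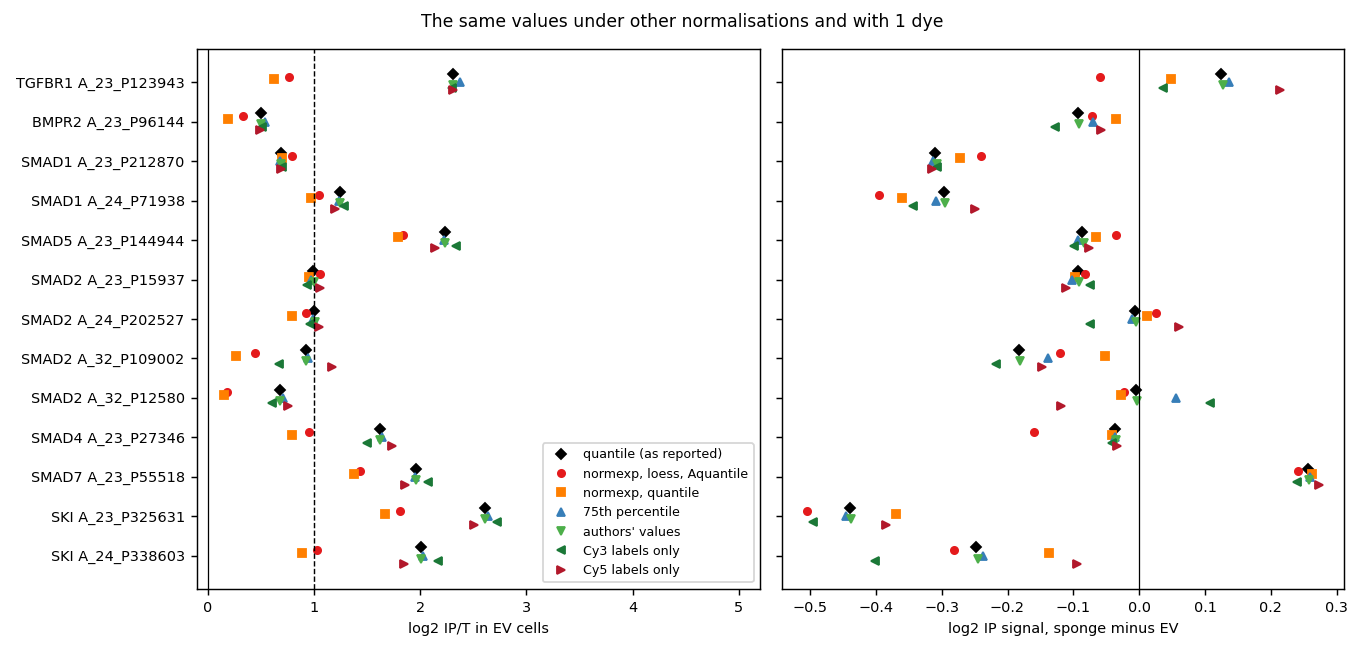
Log2 IP/T in EV cells (left) and log2 change in IP of sponge against EV cells (right) on the horizontal axes for the 13 kept probes, with a symbol for each normalisation or single dye. SMAD5, SMAD7 and SKI A_23_P325631 stay right of an IP/T of 2 (dashed) under every symbol, TGFBR1 moves from 2.31 to 0.62, and both SMAD1 probes and both SKI probes stay below 0 on the right.

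The count of enriched probes was smaller with another background correction. With normexp and quantile normalisation, 3 of 15 kept member probes had IP/T of 2 or more in EV cells, against 7.58% of all kept probes, and the 3 were SMAD5, SMAD7 and SKI A_23_P325631, which were also the 3 in sponge cells, against 7.19%. With normexp, loess and Aquantile, 6 did in EV cells, against 8.77%, and 4 in sponge cells, against 6.92%. Both settings change the background correction and the input signals and add an offset of 50 to each intensity, and their separate parts were not tested. In EV cells the median log2 IP/T of all kept probes was -0.16 as reported, -0.03 with normexp and quantile, and 0.01 with normexp, loess and Aquantile. The signs of IP/T above 1 held for all 13 probes in all 9 alternatives, and the change in IP kept its sign in all 9 for 10 of the 13, with exceptions for TGFBR1 (-0.06 with normexp, loess and Aquantile) and the SMAD2 probes A_24_P202527 and A_32_P12580. The change in T kept its sign in all 9 for 5 of the 13 probes and that in IP/T for 6. These 9 settings share channels and are not separate checks.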

How the data were processed

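RNA of L1236 cells was measured on 4 Agilent two-colour arrays with 8 channels. Per the file headers, the authors extracted spot intensity values with Agilent Feature Extraction 10.7.3.1 (the labels name 10.5.1.1), which subtracts background and corrects for the dye. The 8 files are 4 arrays, each given for both samples hybridised on it. A deposited table gives log2 values normalised by the authors, with 22282 probes, of which 22268 were also kept here, with a median absolute difference of 0.0018 over all values. Flag columns were used as deposited. No table column was without a sample.

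The processed intensity of each sample's own dye was log2 transformed, control spots and outlier spots were left out, spots of a probe were averaged, and the 8 channels were quantile normalised as the methods state. Of 41000 probes, 60 lacked a value, 25827 were well above background in at least 4 channels (a probe with several spots in a channel counted when at least 50% of them were), and 3356 of those differed over 2-fold between dyes, which left 22471. No spot was saturated. Probes were named through RefSeq gene tables by accession, and 69.5% of the kept probes matched; the array's own annotation is hg18 and no gene coordinates are given. IP/T is the mean log2 IP signal minus the mean log2 T signal of the same cells. A probe not well above background in either labelling has a bound only, set on normexp, loess and Aquantile values. With 1 RNA sample a group no test was made, and precision is limited by how few arrays there are.

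The members and gene lists were chosen with earlier results of these data known. All members were named with every probe. From the pathway list, TGFB1, GDF11, GDF15 and USP9X are given without meeting the rule that follows. Genes of the pathway list were taken at the kept probe of highest mean signal and named when IP/T or T/IP was 2 or more in both populations and each orientation, or when T or IP differed by 2-fold or more with the same sign in both dyes. Alternatives were other normalisations (normexp with offset 50 on median foreground and background signals, alone with quantile normalisation or with loess and Aquantile; 75th percentile scaling; the authors' values), filters and single dyes or orientations. Python 3.11.15, numpy 2.4.6, pandas 2.3.3, R 4.3.3 and limma 3.58.1 were used, and the calculation was tested on simulated data.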

Additional observations from a re-analysis of the deposited data

How the results depend on the processing

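Of 585 values of the 13 kept probes under the 9 alternatives that alter values, 537 kept the sign reported. This was so for all 117 of IP/T in EV cells and all 117 in sponge cells. For the change in IP it was 109 of 117, and for the change in T 94 of 117. The 9 alternatives are not separate checks. For a change in T or IP the single orientations reuse the single-dye values. The authors' values and those with outlier spots kept lay close to the values reported. With normexp and quantile normalisation the number of member probes with IP/T of 2 or more was 3 of 15 in EV and in sponge cells. The shares of all kept probes were 7.58% and 7.19%. With normexp, loess and Aquantile it was 4 of 15 in sponge cells, against 6.92%. With a dye filter at 1.5-fold it was 5 of the 9 member probes kept there, against 17.0%. The number changed 2-fold or more in T was 1 with 75th percentile scaling and 1 with no dye filter, in both the BMPR2 probe A_24_P753161. The median log2 IP/T of the member probes in EV cells was 0.92 with normexp, loess and Aquantile, 0.79 with normexp and quantile, 1.40 with 75th percentile scaling, 1.45 with no dye filter, 1.30 with IP in Cy5 only and 1.32 with IP in Cy3 only. In sponge cells it was 0.65 with normexp, loess and Aquantile, 1.73 with no dye filter and 1.58 with IP in Cy3 only. With 1 dye left out, the EV median ranged from 1.20 to 1.28 and the sponge median from 0.93 to 1.37. The number with IP/T of 2 or more then ranged between 7 and 10 of 13 (EV) and between 6 and 10 of 13 (sponge). The shares of all kept probes were 17.3% to 17.8% in EV cells and 16.3% to 19.2% in sponge cells. No member probe had T/IP of 2 or more, changed 2-fold in IP or met the loss criterion under any alternative run. The causes of these shifts were not tested. No paired analysis was possible because each group is 1 RNA sample and the numbers only mark its dye labels. Signal over background limits TGFBR2, SMAD3, BMPR2 A_24_P753161 and the T values of TGFBR1 and SMAD2 A_32_P12580.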
